A study of Mus musculus with 24 samples.

Results

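The 36 genes described here encode the proteins with which a cell passes from G2 into mitosis, separates its chromosomes and divides. They were chosen by symbol, as a list of well-known mitotic genes, with earlier results of these data known. All 36 were found among the 23283 genes counted. RNA was counted in 24 mouse libraries of 6 groups, each library made from the cytosolic RNA of 1000 cells in a well, with priming on oligo-dT and amplification. The 4 iPS libraries came from factor-independent induced pluripotent stem cells, collected in bulk as positive for an Oct4:GFP reporter and grown in mouse embryonic stem cell (mESC) medium with LIF and no doxycycline. The 4 fast MEF and 4 slow MEF libraries came from mouse embryonic fibroblasts that spent 6 days in mESC medium with doxycycline, which switches on their Yamanaka factors. They were sorted on CFSE after 48 hours; this dye is shared out between daughter cells, so the dimmest cells had divided most. The 4 bulk MEF libraries came from fibroblasts kept in serum medium, with no factor induction in their labels. The labels call them unsorted, although the protocol given for every library sorts cells into wells. The 5 fast GMP and 3 slow GMP libraries came from granulocyte monocyte progenitors, committed blood progenitors, sorted by CFSE after 24 hours in serum-free medium with SCF, interleukin 3, Flt3 ligand and thrombopoietin. Under cycle speed, iPS are labelled fast and bulk MEF slow. The labels do not say whether the libraries of a group came from separate animals or cultures, so a p-value reflects variation among these libraries only, and that variation may be technical.

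Cells switch on mitotic genes as a wave late in the cell cycle. Cdk1 with cyclin A or B drives entry into mitosis, the spindle checkpoint holds the anaphase-promoting complex until every chromosome is attached, and that complex, with Cdc20, then marks securin and cyclin B for destruction. Many of these genes are repressed in resting cells by the DREAM complex, whose MuvB core binds the CHR element of promoters, and are activated in dividing cells when MuvB joins B-Myb and Foxm1, with NF-Y bound at CCAAT boxes. Their level in a pool of cells can therefore rise with the share of cells between late S phase and division, or with the RNA per cell. In these bulk libraries a larger share of such cells and more RNA per cell cannot be told apart.

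The mitotic genes were high in iPS and fast MEF and low in slow MEF and bulk MEF. Summed over the 36 genes, the level was 3412 to 3995 CPM (counts scaled to library size with TMM factors) in iPS, 2152 to 2851 CPM in fast MEF, 311 to 467 CPM in slow MEF and 396 to 555 CPM in bulk MEF. In GMP the sum was 1237 to 2229 CPM in the fast gate and 1960 to 2158 CPM in the slow gate, so the MEF gates were far apart and the GMP gates overlapped. These sums depend on the scaling: with library totals and no factors they were 1056 to 1500 CPM in fast GMP and 1285 to 2177 CPM in slow GMP, and 2524 to 3848 CPM in fast MEF, so that fast GMP no longer reached fast MEF. With DESeq2 size factors, fast GMP (1591 to 2416 CPM) and slow GMP (1967 to 2668 CPM) both overlapped fast MEF (1953 to 2457 CPM). Among group means, taken separately for each gene in each group, 36 moved by more than their SD without factors and 180 did not. Under DESeq2 size factors, 14 of these means moved by more than their SD and 202 did not. For 30 of the 36 genes every iPS and every fast MEF library lay above every slow MEF and bulk MEF library. The others were Ccnb2, Mad2l1, Tacc3, Ckap2, Prc1 and Cdca3. The share of all genes with this order of the 4 groups was not counted. In single pairs, 18.7% of all genes tested had fast MEF wholly above slow MEF. The share was 19.4% for fast MEF above bulk MEF and 25.1% for iPS above bulk MEF. On the TMM scale, the highest group mean was that of iPS for 25 genes, of fast MEF for 5 (Ccna2, Cenpe, Nusap1, Anln and Mki67), of slow GMP for 4 (Cdk1, Mad2l1, Aurkb and Tacc3) and of fast GMP for 2 (Cdca8 and Kif2c). The lowest mean was that of slow MEF for 23 genes and of bulk MEF for 11.

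**Figure D1:**
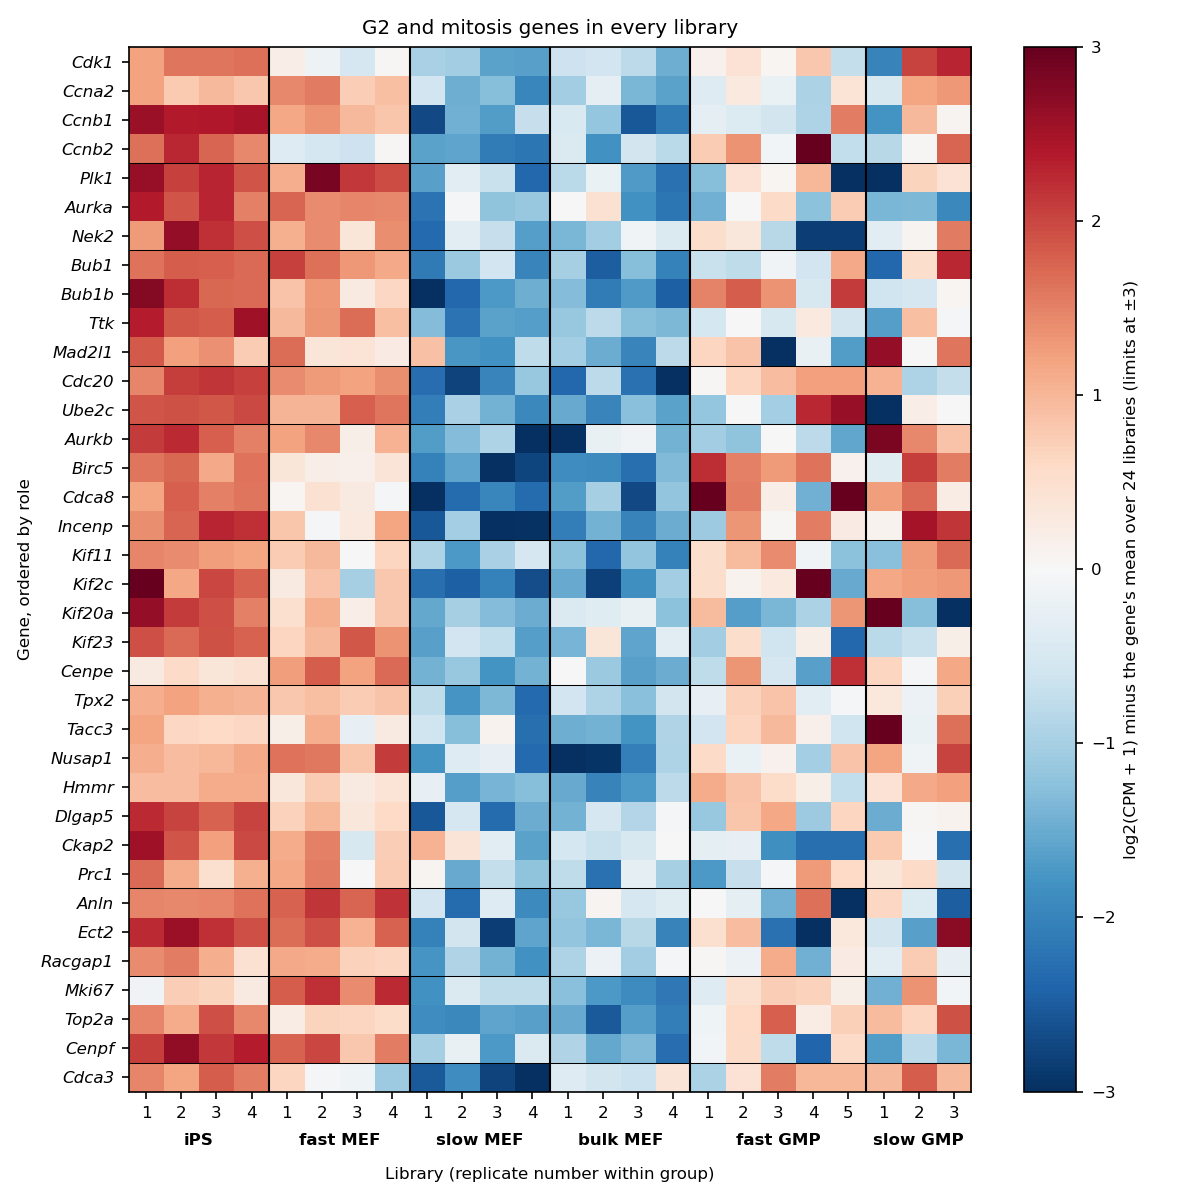
Heat map of the 36 mitotic genes (down the page, by role) in the 24 libraries (across, by group). Colour gives log2(CPM + 1) less the gene's own mean over the 24 libraries. The iPS and fast MEF columns are above the gene mean for nearly the whole list, the slow MEF and bulk MEF columns are mostly below it, and the GMP columns differ from library to library.

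Library totals ran from 2098846 to 18648132 counts, with the 8 GMP libraries at 2098846 to 4411526. Fast GMP replicate 1 stood apart from the other fast GMP libraries. It had 18402 genes detected and a TMM factor of 1.19, against 9380 to 13904 genes and factors of 0.632 to 0.673. It also had the lowest sum of the 36 genes in its group, 1237 CPM. Rn45s and Lars2, which collect ribosomal reads, took 19.9% to 48.9% of the counts of GMP libraries and 3.05% to 11.7% elsewhere. Pluripotency and GMP genes were highest in the groups labelled for them. The summed level of 12 pluripotency genes was 2824 to 4261 CPM in iPS, and that of 11 GMP genes was 5322 to 24795 CPM in fast GMP and 9958 to 18130 CPM in slow GMP, against at most 68.3 CPM in any other library. Fibroblast genes (12) summed to 41086 to 80329 CPM in slow MEF and 21955 to 40355 CPM in bulk MEF. In fast MEF they summed to 2124 to 5006 CPM, while keratinocyte genes summed to 8363 to 14672 CPM and neural genes to 4962 to 6283 CPM. The spread between libraries of a group was wide in GMP: the median coefficient of variation over the 36 genes was 64.3% in fast GMP and 71.0% in slow GMP, against 19.5% in iPS, 26.8% in fast MEF, 56.3% in slow MEF and 44.4% in bulk MEF.

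Promoters of the mitotic genes shared short motifs that the choice of genes did not use. Of the 36 genes, 30 had an entry in the RefSeq promoter table, which gives 250 bases before and 50 after each start on GRCm38.p6 (6 had none: Aurkb, Ccna2, Dlgap5, Incenp, Kif20a and Tpx2). The promoters of 8 genes that the results turn on are printed 5′ to 3′ on the strand of the gene, to show where these letters lie in each and which genes lack them. Capitals mark CHR letters (TTTGAA or TTCGAA) and NF-Y letters (CCAAT), on either strand, so that a CCAAT box on the other strand reads ATTGG and a TTTGAA reads TTCAAA.
Cdk1 chr10:69352863-69353162 (- strand): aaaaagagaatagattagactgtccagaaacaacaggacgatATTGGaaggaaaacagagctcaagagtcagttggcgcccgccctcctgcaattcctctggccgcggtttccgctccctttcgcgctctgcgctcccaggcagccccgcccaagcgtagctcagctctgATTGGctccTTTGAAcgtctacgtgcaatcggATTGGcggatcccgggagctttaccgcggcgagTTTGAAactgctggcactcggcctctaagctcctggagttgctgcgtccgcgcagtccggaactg
Ccnb1 chr13:100786437-100786736 (- strand): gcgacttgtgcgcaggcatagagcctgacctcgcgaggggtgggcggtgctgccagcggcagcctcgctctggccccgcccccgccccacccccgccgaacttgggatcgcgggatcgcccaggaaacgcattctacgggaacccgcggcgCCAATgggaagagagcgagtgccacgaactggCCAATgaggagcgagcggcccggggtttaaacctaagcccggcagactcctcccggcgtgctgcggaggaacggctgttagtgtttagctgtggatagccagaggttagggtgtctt
Ccnb2 chr9:70421505-70421804 (- strand): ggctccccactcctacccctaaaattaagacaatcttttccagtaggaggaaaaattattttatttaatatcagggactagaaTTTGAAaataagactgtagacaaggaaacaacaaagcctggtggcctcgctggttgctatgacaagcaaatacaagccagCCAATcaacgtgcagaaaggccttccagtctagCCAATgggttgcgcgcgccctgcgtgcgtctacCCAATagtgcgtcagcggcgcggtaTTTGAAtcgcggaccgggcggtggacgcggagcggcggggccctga
Plk1 chr7:122159185-122159484 (+ strand): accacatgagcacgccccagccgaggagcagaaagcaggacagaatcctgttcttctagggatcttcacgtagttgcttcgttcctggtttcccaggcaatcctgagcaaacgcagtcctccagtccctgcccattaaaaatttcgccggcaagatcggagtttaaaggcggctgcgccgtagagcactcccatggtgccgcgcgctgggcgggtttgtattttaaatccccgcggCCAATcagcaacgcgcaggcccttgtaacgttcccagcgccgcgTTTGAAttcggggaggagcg
Cdc20 chr4:118437294-118437593 (- strand): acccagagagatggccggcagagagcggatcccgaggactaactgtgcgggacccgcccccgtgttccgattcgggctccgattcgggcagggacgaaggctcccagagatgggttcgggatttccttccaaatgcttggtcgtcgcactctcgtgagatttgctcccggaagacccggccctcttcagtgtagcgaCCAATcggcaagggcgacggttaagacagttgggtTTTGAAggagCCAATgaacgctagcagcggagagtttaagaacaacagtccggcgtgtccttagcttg
Aurka chr2:172370521-172370820 (- strand): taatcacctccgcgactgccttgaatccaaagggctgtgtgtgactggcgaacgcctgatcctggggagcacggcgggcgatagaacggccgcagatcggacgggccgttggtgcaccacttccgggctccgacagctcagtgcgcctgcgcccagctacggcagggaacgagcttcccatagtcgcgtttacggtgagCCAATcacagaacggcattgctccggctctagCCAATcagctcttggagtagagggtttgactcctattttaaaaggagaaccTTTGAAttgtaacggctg
Birc5 chr11:117848987-117849286 (+ strand): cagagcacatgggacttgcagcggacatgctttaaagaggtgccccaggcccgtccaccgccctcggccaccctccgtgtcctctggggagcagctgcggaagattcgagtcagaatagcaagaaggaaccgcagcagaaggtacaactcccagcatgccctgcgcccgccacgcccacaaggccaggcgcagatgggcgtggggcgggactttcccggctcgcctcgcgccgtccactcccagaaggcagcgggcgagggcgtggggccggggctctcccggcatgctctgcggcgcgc
Ube2c chr2:164769679-164769978 (+ strand): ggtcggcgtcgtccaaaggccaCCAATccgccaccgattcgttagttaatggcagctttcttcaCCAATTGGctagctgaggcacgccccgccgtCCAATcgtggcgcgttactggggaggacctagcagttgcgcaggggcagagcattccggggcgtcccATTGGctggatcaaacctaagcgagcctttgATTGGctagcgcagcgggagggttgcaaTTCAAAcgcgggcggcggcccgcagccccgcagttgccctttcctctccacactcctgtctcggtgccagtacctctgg

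Among the printed promoters, Cdc20 held TTTGAA starting 18 bases before the start, between CCAAT boxes at 53 and 8 bases before it. Cdk1 held TTTGAA at 71 and 15 bases before the start and 3 CCAAT boxes on the opposite strand. In Plk1 and Aurka the TTTGAA lay after the start, at 30 and 32 bases. Ube2c held 6 CCAAT boxes and a TTTGAA on the opposite strand 29 bases before the start. Ccnb1 held 2 CCAAT boxes without CHR letters, and Birc5 held neither in this window. Over the 30 promoters, 23 (76.7%, exact 95% interval 57.7% to 90.1%) held CHR letters, against 5 of 28 S phase genes (17.9%, 6.06% to 36.9%) and 19.4% of all 27025 genes of the table. CCAAT was held by 24 of 30 (80.0%), against 17 of 28 S phase genes (60.7%) and 37.9% of all genes. Both motifs together were held by 21 of 30 (70.0%), against 14.3% of S phase genes and 7.70% of all genes. E2F-like letters (TTCCCGC, or else TTCGCGC, or else TTGGCGC, or else TTGCCGC) showed the reverse order between the lists, in 6 of 30 mitotic promoters (20.0%) and 17 of 28 S phase promoters (60.7%), with 9.69% of all genes. Within 50 bases of the start, 20 of 30 mitotic promoters held CHR letters (66.7%), against 1 of 28 S phase promoters (3.57%) and 5.29% of all. With the 250 bases before the start alone, the mitotic share was 36.7% and that of all genes 17.4%, since many of the CHR letters lie after the start. These shares describe letters and not bound sites, the intervals cover counting error only, and CCAAT and TTGGCGC on opposite strands can share bases, as they do in Ccnb1.

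**Figure D2:**
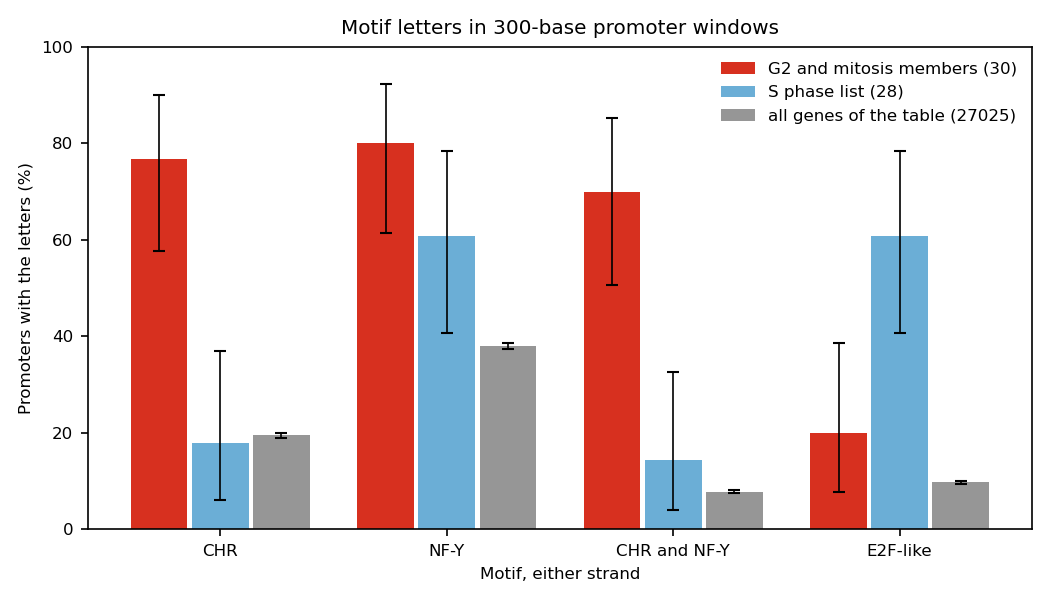
Share of promoters (vertical axis, %) that hold CHR, NF-Y, both, or E2F-like letters on either strand in the 300-base window, for 30 mitotic genes, 28 S phase genes and all 27025 genes of the RefSeq table. Bars start at 0 and error bars are exact 95% binomial intervals. CHR letters are in 76.7% of mitotic and 17.9% of S phase promoters, and E2F-like letters in 20.0% and 60.7%.

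The CFSE gates of the induced fibroblasts differed for nearly all of these genes. Of the 36, 32 rose in fast MEF over slow MEF (edgeR quasi-likelihood test, Benjamini-Hochberg adjusted p under 0.05 over all genes tested), where 14.4% of all 11742 genes tested rose. The libraries of the gates did not overlap for 32 genes, against 18.7% of all genes with fast MEF above. The median log2 fold change of the 36 was 2.46, against -0.11 over all genes, and 27 exceeded 4-fold. Ect2, Cdc20 and Ttk had the highest fold changes, at 3.55, 3.18 and 3.16. The 4 genes that did not pass were Cdk1, Mad2l1, Tacc3 and Ckap2, all with positive estimates. With all 24 libraries in 1 fit, 26 of the 32 passed, where 12% of all genes passed in either direction. Markers of other cell types moved between the same gates. All 12 fibroblast genes fell, with the sums given above. None of the 12 was at 0 in either gate. The 6 keratinocyte genes summed to 8363 to 14672 CPM in fast MEF and 42.7 to 602 CPM in slow MEF, and the 2 of them that could be tested, Krt14 (5.33 ± 0.74) and Sfn (5.69 ± 0.63), rose. The 6 neural genes summed to 4962 to 6283 CPM in fast MEF and 346 to 509 CPM in slow MEF, with Neurod1 at 0 in both. Only 2 of the 6 had a mean of at least 10 CPM in fast MEF, and 2 of the 3 tested rose. The 12 pluripotency genes summed to 259 to 518 CPM in fast MEF and 12.8 to 26.1 CPM in slow MEF. Only 3 of the 12 had a mean of at least 10 CPM in fast MEF, and 3 of the 4 tested rose. The list holds Pou5f1 and Sox2, which are themselves Yamanaka factors, and counts of induced and own copies were not separated. The part of these markers in the result was not tested.

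Every one of the 36 genes rose in iPS over bulk MEF, where 24.1% of the 11736 genes tested rose and 47.4% changed in either direction. No library of bulk MEF reached the lowest iPS library for any of the 36, against 25.1% of all genes with iPS above. The median log2 fold change was 2.92, against 0.10 over all genes. The highest were Kif2c, Bub1b and Ect2 at 4.11, 4.09 and 3.97, and the lowest were Cdca3, Racgap1 and Cenpe at 1.77, 1.67 and 1.41. Fast MEF over bulk MEF gave 31 genes that rose, where 16.5% of 11335 genes did, with a median of 2.20 against -0.05 over all genes. For 33 genes every fast MEF library lay above every bulk MEF library, against 19.4% of all genes. The 5 that did not pass were Cdca3, Ccnb2, Cdk1, Ckap2 and Aurkb. With all 24 libraries in 1 fit, 33 genes passed for iPS over bulk MEF, where 26.4% of all genes passed in either direction. For fast MEF over bulk MEF, 22 then passed, where 14.4% of all genes did. These comparisons share the bulk MEF libraries with each other and the fast MEF libraries with the comparison of gates. Markers of cell types moved in both. In iPS over bulk MEF, all 12 pluripotency genes and 4 of 5 endothelial genes tested rose, as did 2 of 3 neural genes, while 11 of 11 fibroblast genes and 4 of 5 macrophage genes fell. Macrophage genes summed to 16.2 to 55.3 CPM in iPS and 192 to 317 CPM in bulk MEF, and endothelial genes to 106 to 130.2 CPM in iPS and 2.53 to 8.76 CPM in bulk MEF, with Emcn at 0 in both. In fast MEF over bulk MEF, 9 of 12 fibroblast genes and 5 of 6 macrophage genes fell, and 3 of 7 pluripotency, 2 of 4 endothelial, 2 of 3 keratinocyte and 2 of 2 neural genes rose. Their part in the result was not tested.

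**Figure D3:**
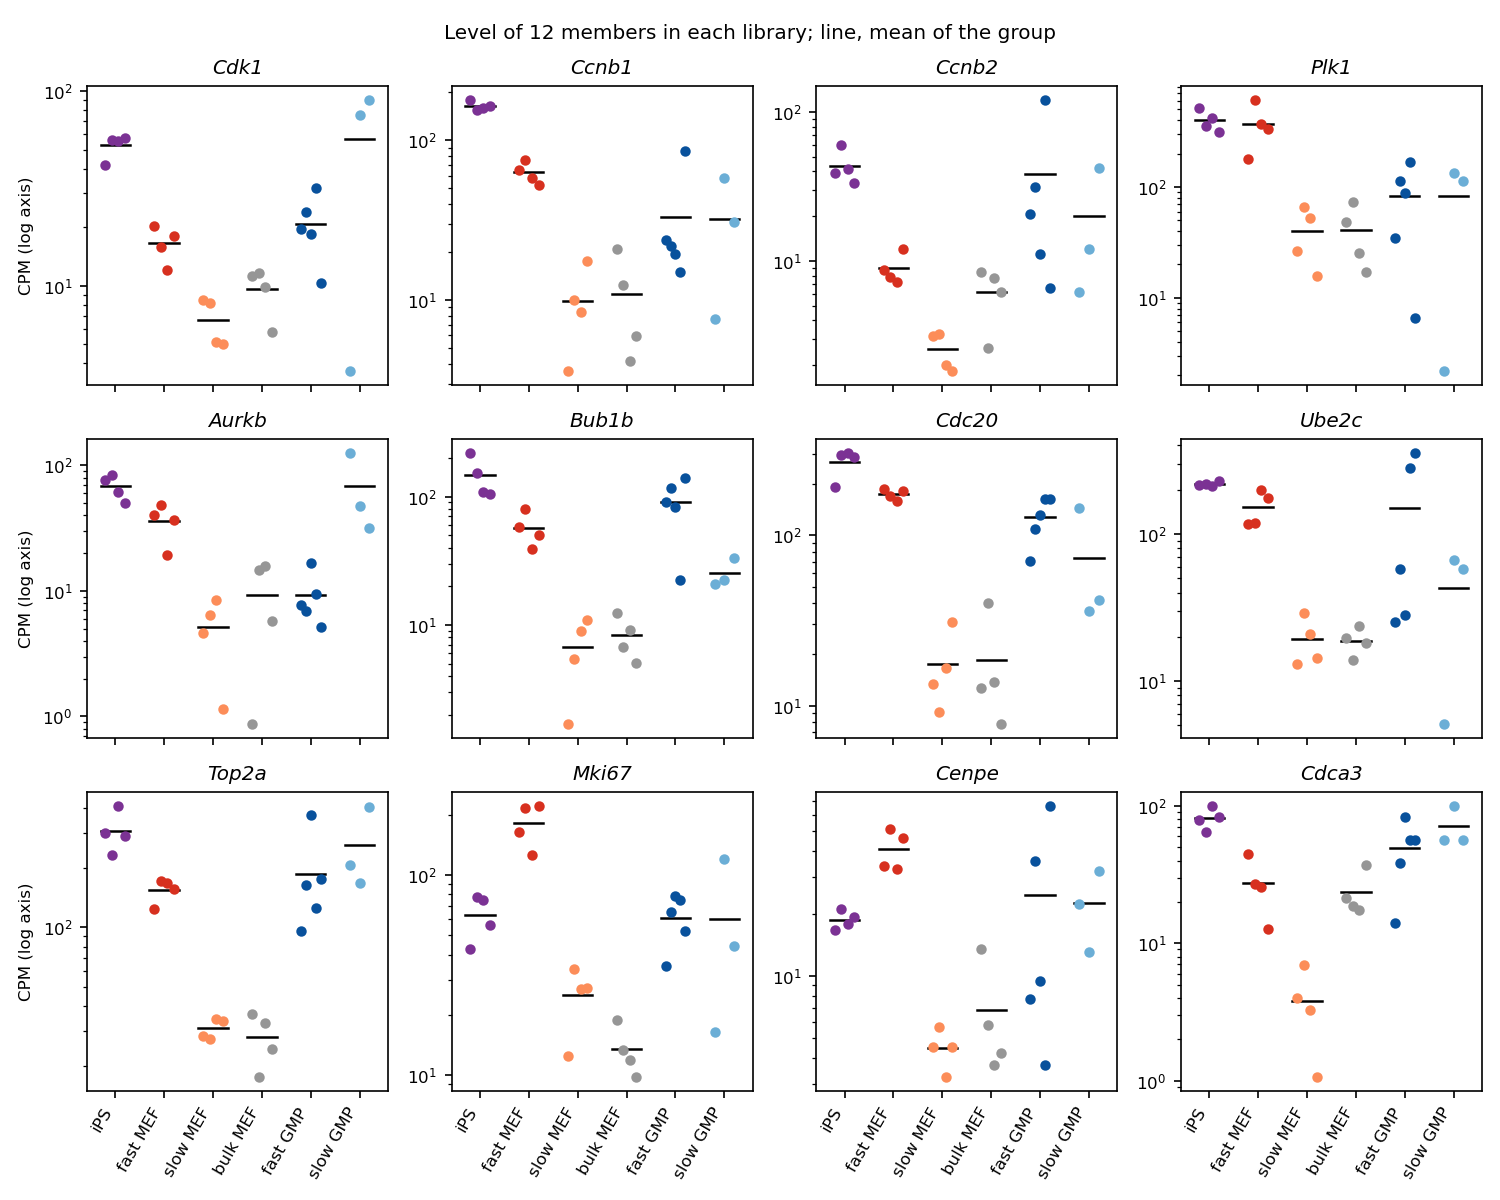
Levels of 12 mitotic genes in CPM on a log axis, by group from iPS to slow GMP. Points are libraries (4 each, 5 in fast GMP, 3 in slow GMP) and lines are group means. The iPS and fast MEF points stand above the slow MEF and bulk MEF points for all of these genes but Ccnb2 and Cdca3, where fast MEF overlaps bulk MEF; the GMP points spread over a wide range.

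The mitotic cyclins and their kinase did not all follow the gates to the same extent. Cdk1, the kinase that drives mitotic entry, had 41.8, 56.2, 55.6 and 57.8 CPM in iPS, 20.3, 15.8, 12.1 and 18.1 CPM in fast MEF, 8.44, 8.1, 5.12 and 5.0 CPM in slow MEF, and 11.2, 11.6, 9.87 and 5.81 CPM in bulk MEF. Of these 4 groups the iPS libraries were highest, and the fast MEF libraries lay above all slow MEF and bulk MEF libraries by a small margin. Cdk1 rose in iPS over bulk MEF by a log2 fold change of 2.42 ± 0.36 (adjusted p = 0.000441) and over fast MEF by 1.67 ± 0.28 (adjusted p = 0.00131); the error is the standard error here and throughout. Its difference between the MEF gates was 1.16 ± 0.43 (95% interval 0.20 to 2.12, adjusted p = 0.064) and did not pass, although it passed without fast MEF replicate 3 (adjusted p = 0.0487). In fast MEF over bulk MEF, Cdk1 was 0.69 ± 0.41 (95% interval -0.22 to 1.60, adjusted p = 0.218). Ccnb1, cyclin B1, had 179.9, 154, 159 and 165 CPM in iPS, 65.6, 75.4, 57.8 and 52.8 CPM in fast MEF, 3.59, 10.05, 8.37 and 17.5 CPM in slow MEF, and 20.9, 12.5, 4.13 and 5.92 CPM in bulk MEF. Every iPS library lay above every fast MEF library, and those above every slow MEF and bulk MEF library. Ccnb1 rose in fast MEF over slow MEF by 2.53 ± 0.46 (adjusted p = 0.00246), in iPS over bulk MEF by 3.88 ± 0.51 (adjusted p = 0.000236) and in iPS over fast MEF by 1.38 ± 0.20 (adjusted p = 0.000685). Ccna2, cyclin A2, had 61.2, 45, 51.8 and 46 CPM in iPS, 72.1, 78.7, 44 and 49.5 CPM in fast MEF, 17, 8.67, 10.00 and 5.96 CPM in slow MEF, and 12.1, 20.9, 9.36 and 7.89 CPM in bulk MEF. It stood as high in fast MEF as in iPS, with overlapping libraries. The rise of Ccna2 was 2.40 ± 0.41 (adjusted p = 0.00172) between the MEF gates and 1.98 ± 0.39 (adjusted p = 0.00221) in iPS over bulk MEF. Ccnb2, cyclin B2, had 38.9, 60.4, 41.8 and 33.5 CPM in iPS, 8.71, 7.88, 7.25 and 12 CPM in fast MEF, 3.17, 3.24, 2.0 and 1.83 CPM in slow MEF, and 8.48, 2.62, 7.65 and 6.25 CPM in bulk MEF. Its fast MEF libraries lay above slow MEF and overlapped bulk MEF. Ccnb2 rose in iPS over fast MEF by 2.28 ± 0.33 (adjusted p = 0.000619), the highest of the 36 in that comparison. Its rise between the MEF gates, 1.65 ± 0.53 (adjusted p = 0.0365), was lost when fast MEF replicate 1, 2 or 4 was left out, and when slow MEF replicate 2, 3 or 4 was (adjusted p up to 0.109), and fast MEF over bulk MEF was 0.43 ± 0.51 (95% interval -0.70 to 1.55, adjusted p = 0.547). Exons of Ccna2 overlap those of Exosc9 on the other strand, and Ccnb1 and Ccnb2 have pseudogene copies, so reads may be shared, and whether strand was used in counting is not known here.

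The kinases of mitotic entry and the spindle were strongly separated by the MEF gates. Plk1, polo-like kinase, had 519, 352, 417 and 314 CPM in iPS, 180.2, 613, 368 and 330.1 CPM in fast MEF, 26.4, 66, 52.9 and 15.8 CPM in slow MEF, and 48.1, 73.8, 25.3 and 17.2 CPM in bulk MEF. Fast MEF replicate 2 was the highest library of all, and the iPS libraries lay within the range of fast MEF. Plk1 rose by 3.06 ± 0.51 (adjusted p = 0.0015) in fast MEF over slow MEF and by 3.24 ± 0.46 (adjusted p = 0.000345) in iPS over bulk MEF, while iPS over fast MEF was 0.10 ± 0.33 (95% interval -0.63 to 0.82, adjusted p = 0.839). Per kilobase of the joined exons of all annotated transcripts, Plk1 ranked first of the 36 in iPS, fast MEF, slow MEF and bulk MEF. It had 182 CPM per kilobase in iPS, 170 in fast MEF, 18.3 in slow MEF and 18.7 in bulk MEF. In fast GMP, Cdc20 ranked first by this measure (68.4 CPM per kilobase), and in slow GMP, Incenp (66.3 CPM per kilobase). Joined exons can be longer than the RNA present, so these ranks depend on the length used and may not order abundance. Aurka, the centrosomal aurora kinase, had 234, 165, 218 and 127 CPM in iPS, 151, 120.0, 123 and 121 CPM in fast MEF, 8.76, 41.9, 18.6 and 19.4 CPM in slow MEF, and 43.8, 60.4, 11.9 and 9.1 CPM in bulk MEF. Its bulk MEF libraries were uneven, with replicates 1 and 2 several times above replicates 3 and 4, but all stayed below the fast MEF libraries. Aurka rose by 2.39 ± 0.44 (adjusted p = 0.00251) between the MEF gates and by 2.53 ± 0.59 (adjusted p = 0.00577) in iPS over bulk MEF. Nek2, which separates the centrosomes, had 13.8, 18.2, 8.12 and 17.8 CPM in fast MEF, against 0.422, 4.7, 3.37 and 1.25 CPM in slow MEF, and rose by 2.40 ± 0.73 (adjusted p = 0.0284). That call was lost when slow MEF replicate 4 was left out, and when fast MEF replicate 1, 2 or 4 was (adjusted p up to 0.0701). In iPS over bulk MEF, Nek2 rose by 3.02 ± 0.53 (adjusted p = 0.0011).

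The spindle checkpoint kinases rose in both fast-cycling groups, and Mad2l1 was the uneven member. Bub1, a checkpoint kinase at kinetochores, had 38.2, 43.4, 42.5 and 39.96 CPM in iPS, 51.3, 38.4, 30.04 and 26.7 CPM in fast MEF, 1.9, 4.86, 7.5 and 2.21 CPM in slow MEF, and 5.3, 1.27, 4.23 and 2.08 CPM in bulk MEF. The iPS and fast MEF libraries overlapped and stood far above slow MEF and bulk MEF. Bub1 rose by 3.00 ± 0.54 (adjusted p = 0.00218) between the MEF gates, by 3.62 ± 0.51 (adjusted p = 0.000324) in iPS over bulk MEF and by 3.41 ± 0.54 (adjusted p = 0.000791) in fast MEF over bulk MEF. Bub1b, which encodes the checkpoint protein BubR1, had 219.7, 152, 108 and 105 CPM in iPS, 58.4, 80.5, 38.7 and 49.7 CPM in fast MEF, 1.69, 5.43, 9.0 and 11 CPM in slow MEF, and 12.4, 6.69, 9.06 and 5.04 CPM in bulk MEF. All iPS libraries lay above all fast MEF libraries. Its rise was 2.92 ± 0.54 (adjusted p = 0.00274) between the MEF gates, 4.09 ± 0.43 (adjusted p = 6.18e-05) in iPS over bulk MEF and 1.36 ± 0.31 (adjusted p = 0.00686) in iPS over fast MEF. Ttk, the Mps1 kinase that starts checkpoint signalling, had 61.7, 43.3, 42.4 and 70.3 CPM in iPS, 23.1, 29.5, 38 and 21.7 CPM in fast MEF, 4.01, 1.62, 3.0 and 2.88 CPM in slow MEF, and 4.53, 6.05, 4.03 and 3.84 CPM in bulk MEF. No fast MEF library came near the slow MEF libraries, and Ttk rose by 3.16 ± 0.47 (adjusted p = 0.00082). Its rise in iPS over fast MEF, 0.93 ± 0.32 (adjusted p = 0.0425), was lost without iPS replicate 1, 2 or 4 or fast MEF replicate 1, 2 or 4 (adjusted p up to 0.114). Mad2l1, which encodes the Mad2 inhibitor of Cdc20, had 27.3, 17.6, 19.5 and 12.5 CPM in iPS, 24.3, 9.22, 9.5 and 8.44 CPM in fast MEF, 13.5, 1.38, 1.25 and 3.65 CPM in slow MEF, and 2.89, 1.81, 1.01 and 3.62 CPM in bulk MEF. Slow MEF replicate 1 stood among the fast MEF libraries and fast MEF replicate 1 stood above the other 3. The MEF gate difference of Mad2l1 was 1.24 ± 0.81 (95% interval -0.56 to 3.03, adjusted p = 0.275), and 2.47 without slow MEF replicate 1 (adjusted p = 0.0283). Mad2l1 rose in fast MEF over bulk MEF by 2.38 ± 0.61 (adjusted p = 0.012), a call lost without fast MEF replicate 1 (adjusted p = 0.0525), and in iPS over bulk MEF by 3.01 ± 0.54 (adjusted p = 0.00126).

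The cofactors of the anaphase-promoting complex gave some of the clearest separations. Cdc20, the activator that the checkpoint holds back, had 192, 295, 306 and 289 CPM in iPS, 186, 169, 159.5 and 181 CPM in fast MEF, 13.4, 9.16, 16.6 and 30.8 CPM in slow MEF, and 12.6, 39.8, 13.7 and 7.78 CPM in bulk MEF. Fast MEF libraries were tightly grouped, and iPS replicate 1 was lower than the other iPS libraries. Cdc20 rose by 3.18 ± 0.38 (adjusted p = 0.000225) between the MEF gates and by 3.83 ± 0.51 (adjusted p = 0.000258) in iPS over bulk MEF, which became 4.52 without bulk MEF replicate 2, the highest bulk library. In fast MEF over bulk MEF it rose by 3.15 ± 0.48 (adjusted p = 0.000688), and by 3.84 without that library. Its rise in iPS over fast MEF, 0.63 ± 0.20 (adjusted p = 0.0299), was lost without iPS replicate 2, 3 or 4 or fast MEF replicate 1, 2 or 4 (adjusted p up to 0.0733). Ube2c, the ubiquitin-conjugating enzyme that works with the complex, had 215, 218, 211 and 228 CPM in iPS, 117, 119, 200.3 and 176 CPM in fast MEF, 13, 29, 21 and 14.3 CPM in slow MEF, and 19.6, 13.8, 23.6 and 18.2 CPM in bulk MEF. The 4 iPS libraries were close to each other and above every fast MEF library. Ube2c rose by 2.85 ± 0.37 (adjusted p = 0.000378) between the MEF gates and by 3.50 ± 0.28 (adjusted p = 1.4e-05) in iPS over bulk MEF. Exons of Cdc20 overlap Elovl1, and those of Ube2c overlap Tnnc2, each on the other strand.

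The chromosomal passenger complex, which corrects wrong attachments and later marks the division plane, rose in iPS over fast MEF in all 4 of its genes. Aurkb, its kinase, had 76.5, 84.1, 61.5 and 50.3 CPM in iPS, 40.5, 48.2, 19.3 and 36.5 CPM in fast MEF, 4.64, 6.4, 8.5 and 1.15 CPM in slow MEF, and 0.868, 14.5, 15.8 and 5.81 CPM in bulk MEF. Bulk MEF replicate 1 was far below the other 3 bulk libraries, and fast MEF replicate 3 was the lowest of its group. Aurkb rose by 2.64 ± 0.59 (adjusted p = 0.00676) between the MEF gates and by 2.83 ± 0.71 (adjusted p = 0.00816) in iPS over bulk MEF. Its difference in fast MEF over bulk MEF was 1.85 ± 0.71 (95% interval 0.29 to 3.42, adjusted p = 0.0647), and it passed without bulk MEF replicate 1 (1.47, adjusted p = 0.0482). The rise of Aurkb in iPS over fast MEF, 0.92 ± 0.31 (adjusted p = 0.0389), was lost without iPS replicate 1, 2 or 3 or fast MEF replicate 1, 3 or 4 (adjusted p up to 0.103). Birc5, survivin, had 57.1, 61.9, 41.3 and 57.8 CPM in iPS, 23.6, 20.9, 20.2 and 23.9 CPM in fast MEF, 3.69, 5.35, 0.75 and 1.83 CPM in slow MEF, and 4.24, 4.07, 3.02 and 6.68 CPM in bulk MEF. Among these 4 groups, iPS was highest and fast MEF next, both without overlap. Birc5 rose by 2.77 ± 0.60 (adjusted p = 0.00611) between the MEF gates and by 1.29 ± 0.26 (adjusted p = 0.0035) in iPS over fast MEF. Cdca8, borealin, had 62, 95.4, 77.6 and 83.2 CPM in iPS, 27.8, 37, 32.1 and 26 CPM in fast MEF, 1.79, 4.54, 6.12 and 4.61 CPM in slow MEF, and 7.71, 12.9, 3.22 and 11.1 CPM in bulk MEF. Each iPS library was above each fast MEF library, and those were above every slow MEF and bulk MEF library. Cdca8 rose by 2.71 ± 0.46 (adjusted p = 0.00175) between the MEF gates and 1.36 ± 0.26 (adjusted p = 0.00251) in iPS over fast MEF. Incenp, the scaffold, had 205, 260.3, 380.0 and 354 CPM in iPS, 136, 74.5, 93.9 and 175 CPM in fast MEF, 12.2, 37.5, 7.87 and 8.94 CPM in slow MEF, and 17.4, 27.9, 18.2 and 26.8 CPM in bulk MEF. Slow MEF replicate 2 lay above every bulk MEF library, while the other slow libraries lay below them. Incenp rose by 2.70 ± 0.55 (adjusted p = 0.00432) between the MEF gates, and by 3.48 without slow MEF replicate 2. In iPS over fast MEF, Incenp rose by 1.32 ± 0.31 (adjusted p = 0.00772). Exons of Cdca8 overlap those of 9930104L06Rik on the other strand.

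All 5 mitotic kinesins rose between the MEF gates, and Cenpe fell in iPS against fast MEF. Kif11, the Eg5 motor that pushes the spindle poles apart, had 38.9, 37.3, 33.6 and 31.7 CPM in iPS, 23.3, 27.2, 13.3 and 21.5 CPM in fast MEF, 6.65, 3.4, 6.37 and 9.13 CPM in slow MEF, and 5.11, 1.81, 5.34 and 2.52 CPM in bulk MEF. Fast MEF replicate 3 was nearest to the slow MEF libraries. Kif11 rose by 1.59 ± 0.45 (adjusted p = 0.0214), a call lost without fast MEF replicate 1 or 2 (adjusted p up to 0.0678), and by 3.21 ± 0.47 (adjusted p = 0.000395) in iPS over bulk MEF. Cenpe, the kinetochore motor that carries chromosomes to the spindle equator, had 16.7, 21, 17.8 and 19.2 CPM in iPS, 34, 51.2, 32.8 and 46.5 CPM in fast MEF, 4.54, 5.67, 3.25 and 4.52 CPM in slow MEF, and 13.5, 5.78, 3.72 and 4.27 CPM in bulk MEF. The fast MEF libraries stood above all others of these 4 groups. Cenpe rose by 3.04 ± 0.37 (adjusted p = 0.000262) between the MEF gates. Its rise in iPS over bulk MEF was the smallest of the 36, 1.41 ± 0.50 (adjusted p = 0.0393), and was lost without any one of the 8 libraries except bulk MEF replicate 1 (adjusted p up to 0.09). It fell in iPS relative to fast MEF, at -1.14 ± 0.28 (adjusted p = 0.00925). Kif2c, the microtubule-depolymerizing motor MCAK, had 231, 52.7, 95.9 and 81.4 CPM in iPS, 28.1, 42.7, 11.1 and 41.1 CPM in fast MEF, 4.01, 3.4, 4.87 and 2.79 CPM in slow MEF, and 7.42, 2.44, 5.74 and 10.6 CPM in bulk MEF. The libraries of iPS were uneven, with replicate 1 far above the rest. Kif2c rose by 2.86 ± 0.50 (adjusted p = 0.0019) between the MEF gates. In iPS it rose by 4.11 ± 0.61 (adjusted p = 0.000447) over bulk MEF and by 1.92 ± 0.52 (adjusted p = 0.0155) over fast MEF, and by 3.47 and 1.33 without iPS replicate 1. Kif20a and Kif23, motors of the central spindle, rose between the MEF gates by 1.91 ± 0.32 and 2.34 ± 0.46. Their rises over bulk MEF in fast MEF, 1.12 ± 0.34 (adjusted p = 0.0241) and 1.81 ± 0.54 (adjusted p = 0.0236), were lost for Kif20a without bulk MEF replicate 4 or fast MEF replicate 2 or 4 (adjusted p up to 0.0704), and for Kif23 without bulk MEF replicate 1 or 3 or fast MEF replicate 3 (adjusted p up to 0.0574). Exons of Kif20a overlap those of Cdc23 on the other strand.

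Among the 7 proteins of the spindle and centrosomes, 5 rose between the MEF gates. Tpx2, which activates aurora A on the spindle, had 154, 167, 151 and 145 CPM in iPS, 127, 135, 122 and 130.4 CPM in fast MEF, 42, 20.1, 27.4 and 13.5 CPM in slow MEF, and 47.2, 37.4, 29.5 and 48.3 CPM in bulk MEF. Its levels within iPS and within fast MEF were close, and the slow MEF libraries overlapped bulk MEF. Tpx2 rose by 2.18 ± 0.36 (adjusted p = 0.00151) between the MEF gates and by 1.89 ± 0.27 (adjusted p = 0.000315) in iPS over bulk MEF. Nusap1, a microtubule-bundling protein, had 21.1, 18.7, 19.8 and 21.9 CPM in iPS, 31.1, 29.99, 17.4 and 43.6 CPM in fast MEF, 2.0, 6.97, 7.75 and 1.06 CPM in slow MEF, and 0.289, 0.361, 1.51 and 4.49 CPM in bulk MEF. Bulk MEF replicates 1 and 2 held under 1 CPM. It rose by 2.62 ± 0.65 (adjusted p = 0.0119) between the MEF gates. The rise of Nusap1 over bulk MEF was the highest of the 36 in fast MEF, 4.11 ± 0.83 (adjusted p = 0.00352), and was 3.60 ± 0.82 (adjusted p = 0.00498) in iPS; without bulk MEF replicate 4 these were 5.27 and 4.74. Tacc3, which stabilizes spindle microtubules, had 96.1, 65.3, 63.7 and 64.8 CPM in iPS, 47.1, 90.2, 35.2 and 50.2 CPM in fast MEF, 27.1, 16.5, 45.2 and 7.98 CPM in slow MEF, and 14.5, 14.9, 11.3 and 21.8 CPM in bulk MEF. Slow MEF replicate 3 lay within the fast MEF libraries. The gate difference of Tacc3 was 1.04 ± 0.52 (95% interval -0.11 to 2.18, adjusted p = 0.154), and its rise in iPS over bulk MEF was 2.19 ± 0.33 (adjusted p = 0.000523). Ckap2, a cytoskeleton-associated protein, had 26.7, 16.5, 10.2 and 17.9 CPM in iPS, 9.35, 12.5, 2.42 and 6.99 CPM in fast MEF, 8.86, 5.27, 2.75 and 0.577 CPM in slow MEF, and 2.31, 1.99, 2.42 and 3.84 CPM in bulk MEF. Its counts were low and its MEF gates overlapped, with a difference of 0.67 ± 0.80 (95% interval -1.10 to 2.44, adjusted p = 0.561). In fast MEF over bulk MEF, Ckap2 gave 1.46 ± 0.61 (adjusted p = 0.0863), and passed without fast MEF replicate 3 (1.82, adjusted p = 0.0265).

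Hmmr, a spindle-pole receptor for hyaluronan, rose by 1.53 ± 0.52 (adjusted p = 0.0456) between the MEF gates, but the call held in only 1 of the 8 fits with a library left out, that without slow MEF replicate 1 (adjusted p up to 0.115). Prc1, which bundles the central spindle, rose by 1.58 ± 0.48 (adjusted p = 0.0281), lost when fast MEF replicate 1 or 2 was left out, and when slow MEF replicate 2, 3 or 4 was (adjusted p up to 0.0879). It was the only gene of the 32 whose MEF gates overlapped, with 50.1, 65.5, 21.8 and 37.7 CPM in fast MEF, against 23.2, 7.13, 13 and 8.94 CPM in slow MEF. Dlgap5, which stabilizes kinetochore fibres, rose by 2.20 ± 0.57 (adjusted p = 0.0146), and by 2.89 without slow MEF replicate 2. Its rise in fast MEF over bulk MEF, 1.30 ± 0.41 (adjusted p = 0.0321), was lost without bulk MEF replicate 1, 2 or 3 or fast MEF replicate 1, 2 or 4 (adjusted p up to 0.0859), while its rise in iPS over fast MEF was 1.37 ± 0.25 (adjusted p = 0.002). Exons of Tacc3, Nusap1 and Prc1 overlap those of Tmem129, Oip5 and Rccd1, each on the other strand.

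The genes of cytokinesis rose between the MEF gates in full. Anln, anillin, which organizes the contractile ring, had 57, 56.7, 57.4 and 64.3 CPM in iPS, 71.6, 93.2, 70.3 and 94.6 CPM in fast MEF, 13.2, 3.24, 15.1 and 4.61 CPM in slow MEF, and 8.68, 21.3, 14 and 15.3 CPM in bulk MEF. Fast MEF libraries were above iPS, and slow MEF overlapped bulk MEF. Anln rose by 3.04 ± 0.52 (adjusted p = 0.00171) between the MEF gates and by 1.95 ± 0.35 (adjusted p = 0.00127) in iPS over bulk MEF. In iPS over fast MEF it was -0.49 ± 0.22 (adjusted p = 0.102) and did not pass. Ect2, which activates RhoA at the division plane, had 36.5, 45.6, 35.3 and 29.1 CPM in iPS, 24.3, 29, 15.4 and 25.9 CPM in fast MEF, 0.95, 4.38, 0.125 and 1.63 CPM in slow MEF, and 2.51, 2.08, 3.42 and 0.986 CPM in bulk MEF. Slow MEF replicate 3 was close to 0. Ect2 rose by 3.55 ± 0.81 (adjusted p = 0.00745), the highest of the 36 between the MEF gates, and by 4.52 without slow MEF replicate 2; in iPS over bulk MEF it rose by 3.97 ± 0.48 (adjusted p = 0.000134). Racgap1, a partner of Kif23 in centralspindlin, had 80.6, 88.3, 63.9 and 41.2 CPM in iPS, 66.6, 65.8, 48.3 and 47.3 CPM in fast MEF, 8.02, 15.6, 10.5 and 7.69 CPM in slow MEF, and 15.2, 26.3, 13.8 and 29 CPM in bulk MEF. The iPS and fast MEF libraries overlapped, as did slow MEF and bulk MEF. It rose by 2.30 ± 0.36 (adjusted p = 0.00112) between the MEF gates and by 1.67 ± 0.38 (adjusted p = 0.00496) in iPS over bulk MEF.

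The genes of mitotic chromosomes differed in which fast-cycling group was highest. Mki67, which coats mitotic chromosomes and is the Ki-67 marker of cycling cells, had 42.7, 77.6, 74.7 and 56.4 CPM in iPS, 165, 216, 126 and 222 CPM in fast MEF, 12.4, 33.9, 26.9 and 27.1 CPM in slow MEF, and 18.9, 13.4, 11.9 and 9.75 CPM in bulk MEF. All fast MEF libraries were above all iPS libraries, and those were above all slow MEF and bulk MEF libraries. Mki67 rose by 2.71 ± 0.35 (adjusted p = 0.000336) between the MEF gates, by 3.66 ± 0.32 (adjusted p = 1.92e-05) in fast MEF over bulk MEF and by 2.18 ± 0.36 (adjusted p = 0.000797) in iPS over bulk MEF. It fell in iPS relative to fast MEF, at -1.53 ± 0.27 (adjusted p = 0.00159). Top2a, topoisomerase II alpha, which untangles sister DNA, had 297, 232, 409.9 and 289 CPM in iPS, 124, 170.3, 167 and 156 CPM in fast MEF, 28.3, 27.3, 34.7 and 33.9 CPM in slow MEF, and 36.7, 17.6, 32.9 and 24.4 CPM in bulk MEF. Here iPS was above fast MEF without overlap. Top2a rose by 2.18 ± 0.25 (adjusted p = 0.000192) between the MEF gates, by 3.42 ± 0.33 (adjusted p = 3.66e-05) in iPS over bulk MEF and by 0.98 ± 0.22 (adjusted p = 0.00678) in iPS over fast MEF. Cenpf, a kinetochore protein of G2 and mitosis, had 66.2, 100.3, 69 and 81.6 CPM in iPS, 53.5, 63.8, 27.3 and 45.4 CPM in fast MEF, 7.07, 12.8, 3.87 and 10.9 CPM in slow MEF, and 7.52, 4.52, 5.44 and 2.3 CPM in bulk MEF. The iPS libraries lay just above the fast MEF libraries. Cenpf rose by 2.30 ± 0.45 (adjusted p = 0.00359) between the MEF gates and by 3.96 ± 0.44 (adjusted p = 7.95e-05) in iPS over bulk MEF, while iPS over fast MEF was 0.75 ± 0.29 (95% interval 0.11 to 1.39, adjusted p = 0.065). Cdca3, a trigger of mitotic entry that targets Wee1 for destruction, had 79, 64.6, 100.3 and 83 CPM in iPS, 44.6, 27.1, 25.6 and 12.7 CPM in fast MEF, 4.01, 6.89, 3.25 and 1.06 CPM in slow MEF, and 21.2, 18.6, 17.4 and 36.8 CPM in bulk MEF. It was the single gene of the 36 whose slow MEF and bulk MEF libraries did not overlap, with slow MEF below. Cdca3 rose by 2.70 ± 0.63 (adjusted p = 0.00849) between the MEF gates and by 1.77 ± 0.34 (adjusted p = 0.00184) in iPS over bulk MEF, while fast MEF over bulk MEF was 0.15 ± 0.45 (95% interval -0.84 to 1.13, adjusted p = 0.83).

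Slow MEF, 6 days under the factors, and bulk MEF, which have no induction in their labels, overlapped for 35 of the 36 mitotic genes. Only Cdca3 passed, which changed by -2.60 ± 0.60 (adjusted p = 0.0186) in slow MEF against bulk MEF, where 4.99% of 11253 genes fell and 5.51% rose. The same gene was the only one with non-overlapping libraries, against 9.33% of all genes with slow MEF below. Its call was lost without slow MEF replicate 3 or bulk MEF replicate 4 (adjusted p up to 0.0568). The other 35 genes gave estimates on both sides, 12 positive, with a median of -0.37 over the 36, against 0.03 over all genes. The highest were Nusap1 at 1.44 ± 1.0 (95% interval -0.74 to 3.63, adjusted p = 0.384), Mad2l1 at 1.12 ± 0.88 and Mki67 at 0.92 ± 0.44. After Cdca3, the lowest were Ccnb2 at -1.25 ± 0.62 (95% interval -2.62 to 0.11, adjusted p = 0.228) and Cdca8 at -1.01 ± 0.63. The intervals were wide, and for 2 of the 36, Ube2c and Top2a, the 95% interval lay within a 2-fold change either way. Cdk1 was -0.50 (-1.59 to 0.60), Ccnb1 -0.11 (-1.53 to 1.31) and Top2a 0.19 (-0.61 to 0.98). No gene of the 36 rose by edgeR, and 1, Cdca3, had an unadjusted p under 0.05; DESeq2 and limma voom also called 1. Of the 12 fibroblast genes, 7 rose in slow MEF over bulk MEF, and their part in the result was not tested.

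In iPS over fast MEF, 15 genes rose and 2 fell, where 18.8% of 11882 genes rose and 19.7% fell. The libraries did not overlap for 21 genes with iPS above and 3 with iPS below, against 19.9% and 20% of all genes, and the median log2 fold change was 0.68, against 0.00 over all genes. Those that rose were Cdk1, Ccnb1, Ccnb2, Bub1b, Ttk, Cdc20, the 4 passenger genes Aurkb, Birc5, Cdca8 and Incenp, the kinesins Kif2c and Kif20a, Dlgap5, Top2a and Cdca3. Ccnb2, Kif2c and Cdk1 had the highest fold changes. Cdca3 rose by 1.56 ± 0.37 (adjusted p = 0.00853) and Kif20a by 1.44 ± 0.29 (adjusted p = 0.00337). Mki67 and Cenpe fell, and Nusap1, the third lowest, was -0.58 ± 0.32 (95% interval -1.30 to 0.14, adjusted p = 0.184). A further 4 calls were gained when 1 library was left out: Nek2 without iPS replicate 1, Aurka without iPS replicate 4, and Ube2c and Kif23 without fast MEF replicate 3. With all 24 libraries in 1 fit, 2 of the 36 passed, Ccnb2 and Mki67, both among the 17. In that fit 15.2% of all genes passed in either direction, against 38.4% in the fit of these groups alone. Fibroblast genes still differed between these groups, with 10 of 11 tested lower in iPS and sums of 104 to 376 CPM in iPS, against 2124 to 5006 CPM in fast MEF, and 2 keratinocyte genes fell. Their part in the result was not tested.

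**Figure D4:**
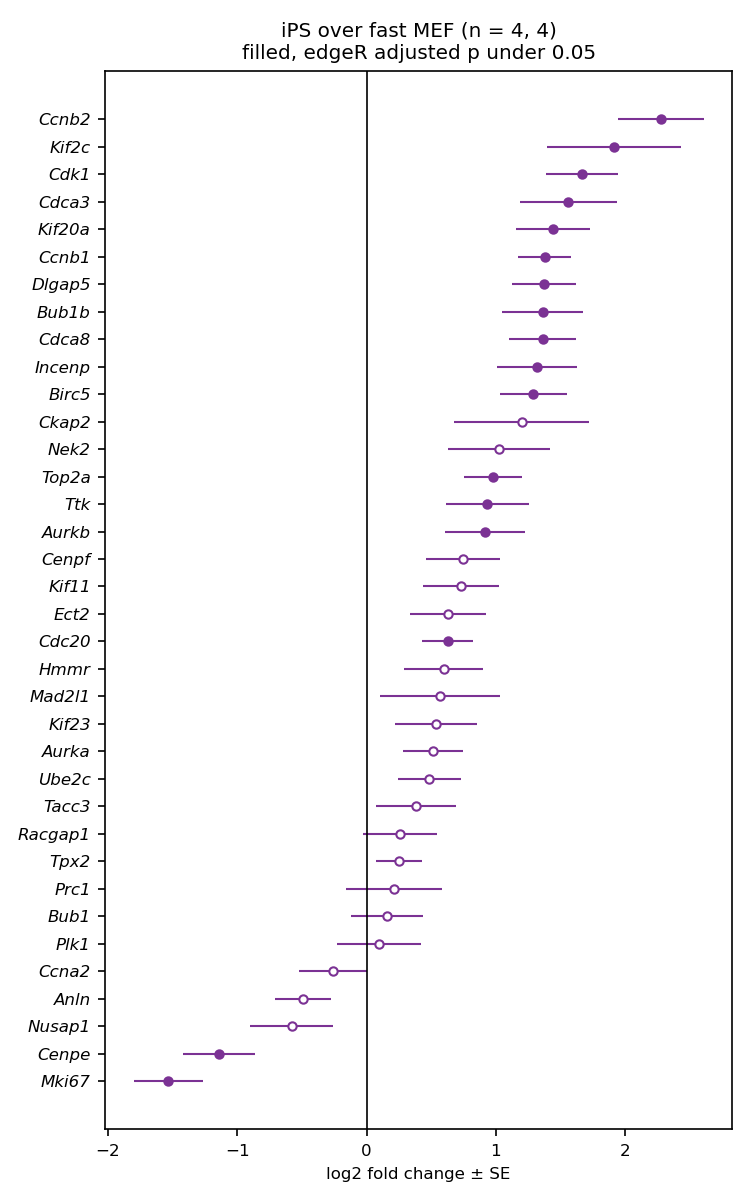
Log2 fold change of iPS over fast MEF (horizontal axis, error bars 1 standard error) for the 36 mitotic genes, 4 libraries per group, filled where the adjusted p is under 0.05. In all, 15 genes are filled on the right of 0, and Mki67 and Cenpe are filled on the left.

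The CFSE gates of the blood progenitors did not separate the mitotic genes. By edgeR, 0 of the 36 passed in fast GMP over slow GMP, where 0% of 10057 genes did. At an unadjusted p under 0.05 there were 2 of the 36, Aurkb and Tacc3, both lower in fast GMP, and 742 genes in all (7.38%). DESeq2 called 97 genes and 1 of the 36 (Aurkb), limma voom called 0, and 1 fit with all 24 libraries called 579 genes and 2 of the 36 (Aurkb and Tacc3). The median log2 fold change was -0.03, against 0.12 over all genes, and 17 of the 36 were positive. The standard errors had a median of 1.03, against 0.49 between the MEF gates. The median 95% interval reached 2.23 on the log2 scale to each side, so a 4-fold difference of a typical gene was not detectable in these 8 libraries. Counts of 0 were found in the GMP groups only, 7 of them in fast GMP (Nek2 and Ckap2 in 2 libraries each, Mad2l1, Anln and Ect2 in 1 each) and 1 in slow GMP (Ckap2).

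Aurkb was the single gene of the 36 whose GMP gates did not overlap, a share near that of all genes, with 7.75, 6.87, 16.8, 9.53 and 5.16 CPM in fast GMP, against 127, 47.8 and 31.6 CPM in slow GMP. All 5 fast libraries lay below all 3 slow libraries, as for 1.86% of all genes tested. The difference did not pass, at -2.89 ± 0.91 (95% interval -4.87 to -0.92, adjusted p = 0.662). Mad2l1 had 11.5, 13.4, 0, 5.8 and 1.48 CPM in fast GMP, against 48, 6.82 and 23.1 CPM in slow GMP, a difference of -1.99 ± 1.34 (95% interval -4.91 to 0.92, adjusted p = 0.739). Tacc3 had 27.8, 66.4, 82.8, 46.8 and 27.3 CPM in fast GMP, against 411, 36 and 134 CPM in slow GMP. Slow GMP replicate 1 was far above every other library, and the difference of -1.97 ± 0.89 (95% interval -3.91 to -0.04, adjusted p = 0.667) became -0.70 without it. At the other end, Bub1b had 90.9, 116, 82.8, 22.4 and 140.1 CPM in fast GMP, against 20.7, 22.3 and 33.1 CPM in slow GMP, with fast GMP replicate 4 among the slow libraries and the other 4 above them. Its difference was 1.86 ± 0.92 (95% interval -0.13 to 3.86, adjusted p = 0.674). Ube2c had 25.2, 58, 27.9, 279 and 358 CPM in fast GMP, against 5.09, 66.4 and 58.1 CPM in slow GMP. Fast GMP replicates 4 and 5 were several times above all others, and the difference was 1.86 ± 1.23 (95% interval -0.81 to 4.53, adjusted p = 0.737). Aurka had 15.5, 43.9, 66, 18.2 and 75.2 CPM in fast GMP, against 16.4, 16.7 and 10.9 CPM in slow GMP, a difference of 1.59 ± 0.98 (95% interval -0.53 to 3.71, adjusted p = 0.716).

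For the main regulators the GMP gates overlapped. Cdk1 had 19.5, 24, 18.5, 31.9 and 10.3 CPM in fast GMP, against 3.64, 75.7 and 90.7 CPM in slow GMP. Slow GMP replicate 1 was the lowest of the 8 libraries and replicates 2 and 3 the highest. Ccnb1 had 23.8, 21.7, 19.5, 14.9 and 86.3 CPM in fast GMP, against 7.64, 57.7 and 30.7 CPM in slow GMP. Ccna2 had 19.5, 32.1, 22.2, 12.8 and 34.7 CPM in fast GMP, against 18.2, 60.2 and 65.6 CPM in slow GMP. Neither cyclin kept its gates apart. Plk1 had 34.4, 114, 88.5, 169 and 6.64 CPM in fast GMP, against 2.18, 134 and 114 CPM in slow GMP. Bub1 had 6.89, 6.49, 10.8, 7.46 and 26.6 CPM in fast GMP, against 1.45, 17.1 and 59 CPM in slow GMP. Slow GMP replicate 1 was the lowest library for both. Cdc20 had 70.9, 109, 131, 164 and 164 CPM in fast GMP, against 144, 36 and 41.6 CPM in slow GMP. Kif11 had 19.8, 27.1, 37.4, 12.4 and 5.16 CPM in fast GMP, against 5.09, 34.1 and 45.8 CPM in slow GMP. Slow GMP replicate 1 was the highest slow library for Cdc20 and the lowest of all for Kif11. Cenpe had 7.75, 35.9, 9.43, 3.73 and 66.4 CPM in fast GMP, against 22.2, 13 and 32.1 CPM in slow GMP. Tpx2 had 60.2, 116, 131, 55.9 and 68.6 CPM in fast GMP, against 88.7, 63.3 and 118 CPM in slow GMP. The Tpx2 libraries stayed close together, and those of Cenpe did not. Anln had 19.8, 16.4, 6.73, 65.5 and 0 CPM in fast GMP, against 31.3, 14.9 and 2.83 CPM in slow GMP. Mki67 had 35, 65.2, 78.4, 75.4 and 52.4 CPM in fast GMP, against 16.4, 120.3 and 43.9 CPM in slow GMP. Anln was at 0 in fast GMP replicate 5. Top2a had 96.4, 163, 368, 125 and 176 CPM in fast GMP, against 206, 167 and 402 CPM in slow GMP. Cenpf had 14.1, 22.9, 8.42, 2.07 and 22.9 CPM in fast GMP, against 4.0, 8.37 and 5.19 CPM in slow GMP. The gates overlapped for both. The differences between the gates had estimates of -1.41 for Cdk1, 0.12 for Ccnb1, -0.95 for Ccna2, -1.10 for Bub1, 0.79 for Cdc20, -0.46 for Kif11, 0.17 for Cenpe, -0.06 for Tpx2, 0.41 for Anln, 0.05 for Mki67, -0.48 for Top2a and 1.29 for Cenpf, with adjusted p from 0.815 to 0.99 except for Cdk1 (0.748). For Plk1 the 95% interval ran from -2.59 to 2.58. Kif2c reached 494 CPM in fast GMP replicate 4, against 7.38 to 33.9 CPM in the other fast GMP libraries. Marker sums overlapped between the gates too. Neutrophil genes summed to 59.3 to 181 CPM in fast GMP and 57.1 to 227 CPM in slow GMP, and macrophage genes summed to 768 to 2181 CPM in fast GMP and 645 to 1422 CPM in slow GMP. Erythroid and megakaryocyte genes summed to 2.36 to 265 CPM in fast GMP and 4.34 to 29.5 CPM in slow GMP. Single marker genes could differ more than the sums. Of 7 neutrophil genes tested, 2 had every fast library above every slow library, against 1.65% of all genes. Their log2 fold changes ran from -3.52 to 8.15 over the 7, and none passed. The part of these markers in the result was not tested.

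The difference between the gates was compared between the cell types by an interaction, the log2 fold change of fast over slow in MEF less that in GMP. Only Aurkb passed, at 5.57 ± 1.08 (adjusted p = 0.0147), where 0.601% of 13814 genes were higher by this measure and 1.4% differed in either direction. It rose in fast MEF over slow MEF and was lower in every fast GMP library, and it passed without each of the 16 libraries in turn (4.85 to 5.99). All 36 estimates were positive, with a median of 2.61, against -0.33 over all genes, and 22 had an unadjusted p under 0.05, where 20.1% of all genes did. After Aurkb, the highest were Ect2 at 5.06 ± 1.81 (95% interval 1.27 to 8.85, adjusted p = 0.129) and Bub1 at 4.14 ± 1.28 (95% interval 1.46 to 6.81, adjusted p = 0.0866). The lowest were Ccnb2 at 0.70 ± 1.24 (95% interval -1.90 to 3.30, adjusted p = 0.789), Aurka at 0.83 ± 0.94 and Ube2c at 1.03 ± 1.21. The number of the 36 that passed depended on the tool. It was 15 by DESeq2, where 11.3% of all genes passed, and 4 by limma voom, where 1.77% did. With all 24 libraries in 1 edgeR fit it was 14, where 8.14% of all genes passed. Without slow GMP replicate 1 or fast GMP replicate 1, 3 genes passed, among them Ccna2 and Incenp. In these fits 0.75% and 4.38% of all genes passed. Incenp also passed without fast GMP replicate 4 or slow MEF replicate 2, Ccna2 without fast GMP replicate 5, Kif2c without fast GMP replicate 4 and Top2a without fast GMP replicate 3.

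**Figure D5:**
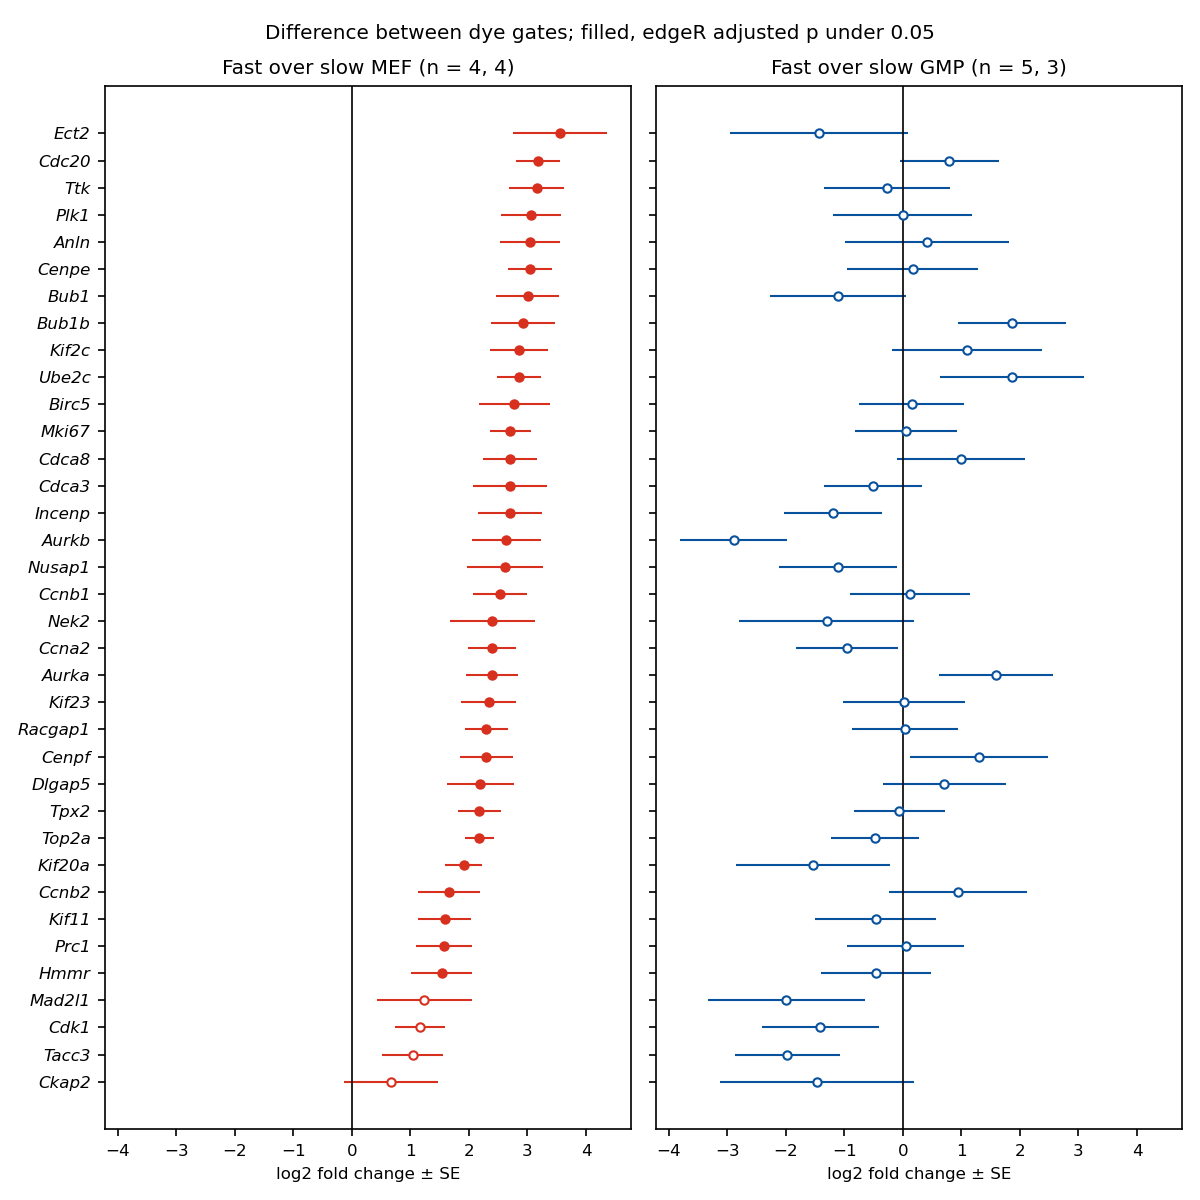
Log2 fold change of fast over slow (horizontal axis, error bars 1 standard error) for the 36 mitotic genes in MEF (4 and 4 libraries) and in GMP (5 and 3), filled where the adjusted p is under 0.05. In MEF 32 genes are filled to the right of 0; in GMP no gene is filled and 17 of 36 lie to the right.

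Other lists of the cell division programme were read in the same fits. Between the MEF gates, where 14.4% of all genes rose and 17.3% fell, the factors that switch these genes on included Mybl2, which encodes B-Myb and rose by 4.70 ± 0.84, and Foxm1, which rose by 1.81 ± 0.44; 3 of 6 tested genes of this list rose. Of 15 G2 regulators, 7 rose, led by Wee1 (6.69 ± 1.95) and Cdc25b (3.72 ± 0.48), of which Wee1 restrains Cdk1 and Cdc25b releases it, and Ensa fell (-1.58 ± 0.48). Of 26 kinetochore and centromere genes, 12 rose, led by Ndc80 (2.95 ± 0.61) and the Cenpa chaperone Hjurp (2.86 ± 0.78). Of 20 cohesin, separase and condensin genes, 14 rose, led by separase, Espl1 (4.41 ± 0.74), and Ncapd2 (3.77 ± 0.46). Of 25 further spindle, kinesin and centrosome genes, 16 rose, led by Spag5 (5.83 ± 1.59) and Troap (3.35 ± 0.85). Of 34 S phase genes, 22 rose, led by Mcm10 (4.91 ± 0.97) and Mcm5 (3.81 ± 0.36). The subunits and enzyme partners of the anaphase-promoting complex did not move as a list: of 14, Ube2s (1.88 ± 0.33) and Anapc1 (1.13 ± 0.24) rose and Cdc26 (-1.48 ± 0.49) fell, with a median of -0.24.

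In iPS over bulk MEF, where 24.1% of all genes rose and 23.3% fell, the counts were 5 of 7 for the B-Myb, Foxm1 and MuvB list (Mybl2 6.53 ± 0.48), 7 of 15 G2 regulators (Ccnf 4.90 ± 0.53), 16 of 27 kinetochore genes (Ska1 4.91 ± 0.73), 16 of 20 cohesin and condensin genes (Espl1 5.21 ± 0.66), 20 of 26 further spindle genes (Kif18a 5.29 ± 1.02) and 31 of 34 S phase genes (Gins1 5.32 ± 0.58), all of which rose. Of the 14 anaphase-promoting complex genes, 2 rose and 3 fell (Cdc16 -1.25 ± 0.44). In iPS over fast MEF, where 18.8% of all genes rose and 19.7% fell, 20 of 34 S phase genes rose (Cdt1 2.75 ± 0.26). Of 6 genes of the B-Myb, Foxm1 and MuvB list, 2 rose, among them Mybl2 (3.01 ± 0.27). Of 15 G2 regulators, 5 rose and 1, Cdc25b, fell (-2.80 ± 0.40). Of 27 kinetochore genes, 9 rose. Of 20 cohesin and condensin genes, 3 rose and 2 fell. Of 26 further spindle genes, 7 rose and 1 fell, and of 14 anaphase-promoting complex genes, 2 rose and 2 fell. In slow MEF over bulk MEF, 2 of 30 S phase genes fell, a share near the 4.99% of all genes, Cdt1 (-3.40 ± 0.73) and Mcm5 (-1.72 ± 0.49), Ube2s fell (-1.23 ± 0.33), and Fbxo5 (2.96 ± 0.85) and Pds5a (1.66 ± 0.43) rose. In the interaction, 0.601% of all genes were higher and 0.796% lower. There 2 of 34 S phase genes were higher, Mcm10 (7.51 ± 1.42) and Rrm2 (3.65 ± 0.81). So were 2 of 20 cohesin and condensin genes, Ncapg (5.54 ± 1.19) and Ncapd2 (5.40 ± 1.0). Of the other lists of the division programme, 0 genes passed.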

How the data were processed

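The authors deposited whole-number read counts per gene symbol, not normalized, for 24 libraries. The tools named per the submitters' processing notes are HTSeq, TopHat2 2.0.4 and CASAVA 1.8.2, with mm9 as the build. What each did, which annotation was counted and whether strand was used is not given in the sources used here. Of the 23283 genes, 1708 had no count. All 37 within-group pairs of libraries differed beyond sampling noise (chi-square per degree of freedom at least 48.7).

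Groups were compared with edgeR 4.0.16 (robust quasi-likelihood F test, TMM factors, filterByExpr) in R 4.3.3, two-sided, with Benjamini-Hochberg adjustment over all genes tested and a threshold of 0.05. Only the groups compared entered a fit, with no replicate block. All 36 genes were tested in each of the 7 comparisons. A standard error is the log2 fold change divided by the root of F. Levels are CPM with TMM factors over all 24 libraries. Per-kilobase levels use the joined exons of all transcripts of a gene in a GENCODE annotation of GRCm38, not the authors' annotation. Promoters and motif letters were read from RefSeq on GRCm38.p6, the first-listed promoter per gene. The tests were tried on simulated counts.

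The 36 genes, the other lists and the tests were chosen with earlier results of these data known. Library values and full statistics were given for 17 genes fixed by name (Cdk1, Ccnb1, Ccna2, Plk1, Aurka, Aurkb, Bub1, Mad2l1, Cdc20, Ube2c, Kif11, Cenpe, Tpx2, Anln, Mki67, Top2a and Cenpf), for the 3 highest and 3 lowest fold changes of each comparison and for genes called against the majority, and up to 2 called genes at each end of the other lists. Values of further genes of the 36 were added where a call or a level stood apart. Alternatives were DESeq2 or upper-quartile factors, no filter or a stricter filter (5 CPM), DESeq2 1.42.0, limma 3.58.1 voom with quality weights, a block for replicate number, 1 fit over all 24 libraries, thinning to the smallest library, removal of Rn45s and Lars2, and each library left out. Python 3.11.15, numpy 2.4.6, pandas 2.3.3, scipy 1.17.1 and matplotlib 3.10.9 were used.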

Additional observations from a re-analysis of the deposited data

Results flagged for a closer look

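In groups of 4 or 5 libraries, 11 of 180 sets of values of the 36 genes held a library far from the others for the spread of its group (Dixon's test). Chance alone gives about 1 in 20, or 9 of 180. In fast GMP, replicate 4 stood high for Kif2c at 494 CPM (next 33.9 CPM) and for Ccnb2 at 121 CPM (next 31.3 CPM), and replicate 5 for Ccnb1 at 86.3 CPM (next 23.8 CPM) and Bub1 at 26.6 CPM (next 10.8 CPM). In iPS, replicate 1 was low for Cdc20 at 192 CPM (next 289 CPM) and for Cdk1 at 41.8 CPM (next 55.6 CPM) and high for Tacc3 at 96.1 CPM (next 65.3 CPM), and replicate 4 was high for Anln at 64.3 CPM (next 57.4 CPM). Fast MEF replicate 1 was high for Mad2l1 at 24.3 CPM (next 9.50 CPM) and Aurka at 151 CPM (next 123 CPM). Slow MEF replicate 2 was high for Incenp at 37.5 CPM (next 12.2 CPM).

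The difference of fast over slow in MEF less that in GMP was 5.57 for Aurkb on the log2 scale, and an interaction test of that difference passed (adjusted p = 0.0147, edgeR quasi-likelihood test).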

How the results depend on the processing

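Over all alternatives, no called gene of the 36 changed direction in any of the 7 comparisons. Replicate numbers shared between groups did not pair the libraries (correlations of same-numbered deviations from -0.06 to 0.07). With the replicate number as a block, the genes of the 36 that passed numbered 29 for fast over slow MEF, 36 for iPS over bulk MEF, 29 for fast over bulk MEF, 15 for iPS over fast MEF, and 0 for slow over bulk MEF, GMP and the interaction (for which 15 of all genes then passed). For slow over bulk MEF, leaving out 1 library gave 0 to 1, with 0 without bulk MEF replicate 4 or slow MEF replicate 3. For iPS over fast MEF, 17 passed in the reported fit and 2 with all 24 libraries in 1 fit. For GMP, 1 passed by DESeq2 and 2 with all 24 libraries. For the interaction, 15 passed by DESeq2, 4 by limma voom, 14 with all 24 libraries, and 1 to 3 with 1 library left out (the higher counts without slow GMP replicate 1, fast GMP replicate 1, 3, 4 or 5, or slow MEF replicate 2). The CHR share was 36.7% with the 250 bases before the start alone, in place of 76.7%. The causes were not tested, except that the shorter window leaves out letters after the start.

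Among all genes, with all 24 libraries in 1 fit, those called numbered 1410 in place of 3726 (fast over slow MEF), 3101 in place of 5566 (iPS over bulk MEF), 88 in place of 1181 (slow over bulk MEF), 1636 in place of 3958 (fast over bulk MEF), 1811 in place of 4568 (iPS over fast MEF), 579 in place of 0 (GMP) and 1125 in place of 193 (interaction). DESeq2 called 1976 genes for slow over bulk MEF, 97 for GMP and 1563 for the interaction. Leaving out 1 library gave 759 to 998 genes for slow over bulk MEF and 82 to 575 for the interaction. The 575 were called without fast GMP replicate 1, where the median of all genes was 0.001. The median of all genes in the interaction was -0.33, -0.48 with DESeq2 size factors and -0.26 with upper-quartile factors. A filter at 5 CPM left 26 of the 36 for slow over bulk MEF and 35 for fast over bulk MEF and for GMP.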
